A study of Oryctolagus cuniculus with 3 samples.

Results

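In the back skin of a Rex rabbit with chinchilla fur, 101 coding sequences stood 2-fold or more above the skin of both its black and its white sibling, out of 15558 with reads in any of the 3 skins. They were chosen by their expression: log2(RPKM + 1) in chinchilla skin had to lie at least 1 above the value in black and at least 1 above the value in white skin, with at least 1 RPKM in chinchilla skin. RPKM is the number of reads per kilobase of coding length, scaled to the library's total of reads assigned to coding sequences. The 3 animals were full siblings of 1 litter, Rex rabbits (a domestic breed with short plush fur), raised alike to an age of 42 days, when the first moult takes place, and each gave 1 RNA-seq library of back skin. The groups differed by coat colour alone in the labels, which name no genotype, allele or sex, and no agent other than the sodium pentobarbital used as anaesthetic in all 3 animals. The study asked which genes control fur colour.

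Hair colour comes from melanocytes in the bulb of the growing follicle, which hand black-brown eumelanin or yellow-red pheomelanin to the cells of the hair shaft. In banded coats the agouti signalling protein switches the melanocyte between both pigments while a hair grows. The chinchilla coat of rabbits is a banded grey one, known to go with a variant of tyrosinase, the first enzyme of melanin synthesis, that mostly takes away the yellow pigment. Skin also holds keratinocytes, fibroblasts, vessels, muscle, fat and immune cells, and follicles that pass through growth and rest, so a level in whole skin is a mix over all of them. In such bulk samples, fewer cells of a type and less RNA per cell cannot be told apart.

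The deposited lists name their entries by Ensembl protein identifiers without gene symbols, and of the 38822 genes in the RefSeq table at hand, 0 list such an identifier. None of the 101 could therefore be given a gene name, the label "back skin" was not checked against marker genes, and no sequence is printed. Members are described by coding length, reads, level and the share of the coding length that reads covered, and the 2 that stood highest above both other skins also by identifier. The libraries held 16.2 M assigned reads (M for mega) for black, 14.8 M for white and 15 M for chinchilla skin. With 1 animal per coat colour there was no replicate and no test across animals, so every difference describes these 3 libraries. Differences between chinchilla and either other skin were used to choose the members and are given as a description. Both comparisons share the chinchilla library, so anything particular to that 1 library enters both.

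Over the 101 members the median level was 9.08 RPKM in chinchilla skin, against 2.86 RPKM in black and 2.5 RPKM in white. Levels in chinchilla skin ran from 1.05 to 502 RPKM, those in black skin from 0 to 148 RPKM and those in white skin from 0 to 240.0 RPKM. The median log2 difference was 1.34 against black and 1.25 against white skin, where all 12608 coding sequences with at least 1 RPKM in any library had medians of 0.04 and 0.05. The members took 0.369% of the assigned reads in chinchilla skin, 0.114% in black and 0.132% in white. Members were thus mostly of low to middling abundance: the median level in chinchilla skin over all 12608 was 18.7 RPKM. The plot of levels by library shows how close most members lay in black and white skin, on its scale of RPKM + 1, before the step up in chinchilla.

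**Figure D1:**
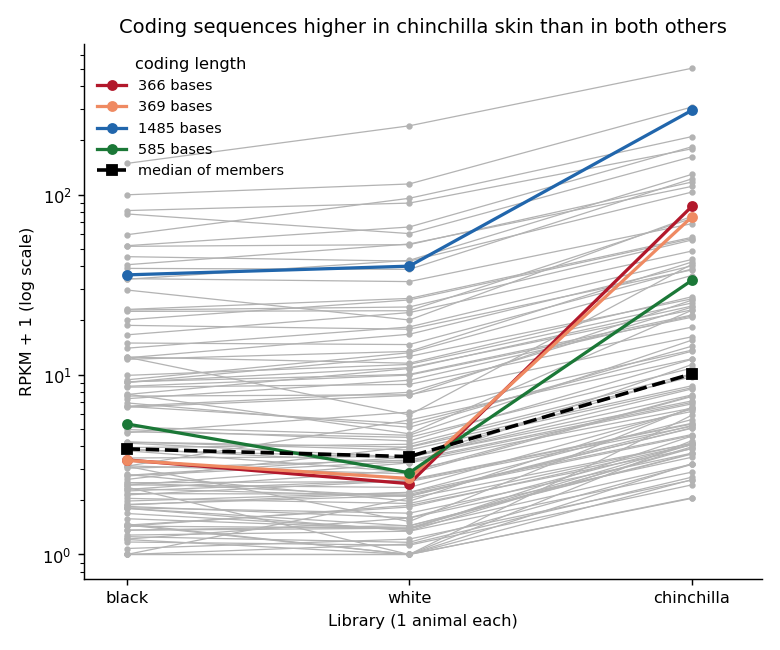
Level of each of the 101 members (RPKM + 1, log axis) in the black, white and chinchilla library, 1 animal each. Grey lines join the values of 1 coding sequence, coloured lines are the 4 that stood highest above both other skins, and the dashed line joins the medians of 2.86, 2.5 and 9.08 RPKM.

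Against black skin, 530 of 12516 compared coding sequences (4.23%) reached 2-fold higher in chinchilla skin, and against white skin 219 of 12310 (1.78%). The 101 that passed both are 0.801% of the 12608 compared, 19.1% of the first set and 46.1% of the second. The 429 raised over black alone had a median log2 difference of 0.54 from white skin, and the 118 raised over white alone had a median of 0.58 from black. At the median, chinchilla skin was also above the remaining skin for these sequences, by less than 2-fold. The limit of 2-fold is set by the choice, since sequences past it are members. The direction is in part, as the same chinchilla library enters both comparisons. Most members lay near the 2-fold step as well. The smaller of a member's 2 log2 differences was between 1 and 1.5 in 85, between 1.5 and 2 in 12 and at least 2 in 4 of them.

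**Figure D2:**
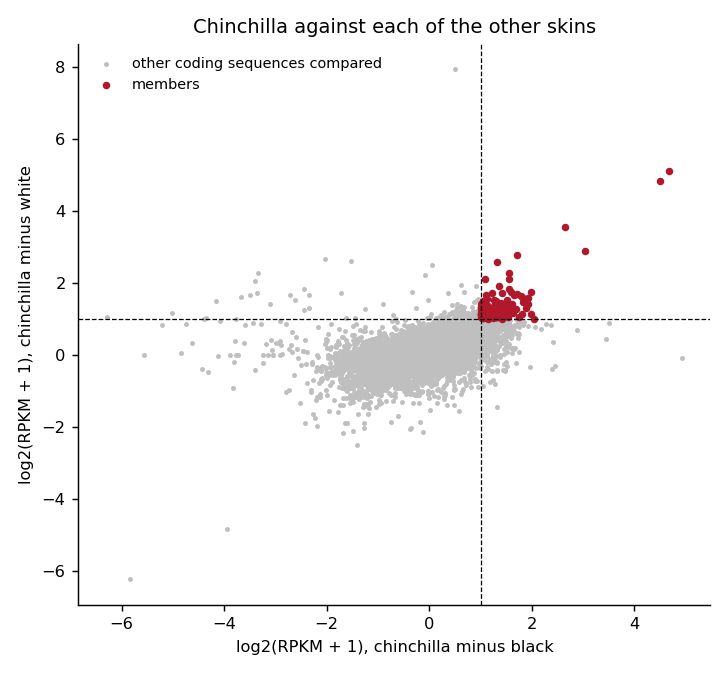
Difference in log2(RPKM + 1) of chinchilla minus black (x axis) and chinchilla minus white skin (y axis) for the 12608 coding sequences compared. Members, in red, lie right of and above the dashed lines at 1, most of them close to the corner, and 2 stand at over 4 on both axes.

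The member furthest above both other skins was ENSOCUP00000015664, a coding sequence of 366 bases. Chinchilla skin held 466 reads of it (84.9 RPKM), where black skin held 14 (2.36 RPKM) and white skin 8 (1.47 RPKM). Its level was 36.0-fold that in black (exact 95% counting interval 21.3 to 66.4) and 57.6-fold that in white skin (29.0 to 134). By RPKM it took place 1764 in chinchilla skin, 11145 in black and 11461 in white. It was thus low in both siblings and well up the list in chinchilla skin. ENSOCUP00000015077, of 369 bases, came next with nearly the same profile, at 410 reads (74.1 RPKM) in chinchilla skin against 14 (2.34 RPKM) in black and 9 (1.64 RPKM) in white. Its level was 31.7 times that in black (18.7 to 58.5) and 45.0 times that in white (23.5 to 99.2). Only uniquely assigned reads were counted, so no read was counted for both of these 2 sequences. Without their sequences, whether they are close copies of each other was not checked. In chinchilla skin, reads covered 90.7% of the first and 98.9% of the second, at a mean depth of 127 and 111. The reads thus lay over most of the first and nearly the whole of the second coding length.

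On the log2(RPKM + 1) scale, which holds back low sequences, a further 2 members were at least 2 (4-fold) above both skins. A coding sequence of 1485 bases was well expressed everywhere, at 6520 reads (293 RPKM) in chinchilla skin, 839 (34.8 RPKM) in black and 859 (39.0 RPKM) in white. At 8.41-fold over black (7.83 to 9.05) and 7.50-fold over white (6.99 to 8.07), it combined a high level with a large difference. For one of 585 bases, the 284 reads of chinchilla skin (32.4 RPKM) stood against 41 in black (4.32 RPKM) and 16 in white (1.84 RPKM). It was 7.50-fold over black (5.39 to 10.7) and 17.5-fold over white (10.6 to 31.1), and black skin itself was 2.34-fold above white (1.28 to 4.47).

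The 12 members with a smaller log2 difference of 1.5 to 2 were mixed in level. The most abundant of them was one of 165 bases, at 318 reads (128 RPKM) in chinchilla skin, 88 (32.8 RPKM) in black and 103 (42.1 RPKM) in white, 3.91-fold over black (3.08 to 5.01) and 3.05-fold over white (2.44 to 3.85). In the order black, white, chinchilla, one of 447 bases had 37.9, 37.4 and 121 RPKM. One of 1020 bases had 21.4, 21.6 and 72.6 RPKM. In both of these, black and white skin differed by less than the counting error, and chinchilla was 3.20-fold and 3.39-fold over black. A coding sequence of 1875 bases was graded instead, from 138 reads in white (4.96 RPKM) over 350 in black (11.5 RPKM) to 1124 in chinchilla (39.97 RPKM). It was 3.48-fold over black (3.08 to 3.93) and 8.05-fold over white (6.74 to 9.68). One of 1134 bases had the same order, with 62, 125 and 370 reads in white, black and chinchilla skin. A long one, of 2499 bases, reached 850 reads (22.7 RPKM) in chinchilla skin from 230 (5.67 RPKM) in black and 258 (6.96 RPKM) in white, 4.0-fold over black (3.46 to 4.65) and 3.26-fold over white (2.83 to 3.76). The 5 with fewest reads had 53 to 147 in chinchilla skin, and their intervals were wide.

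**Figure D3:**
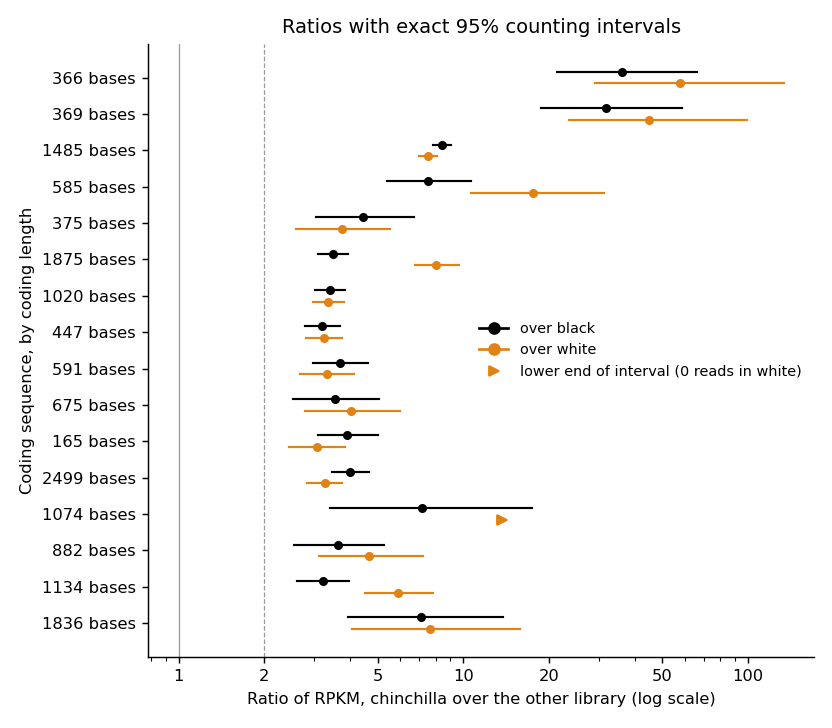
Ratio of RPKM in chinchilla over black (black points) and over white skin (orange points) for the 16 members whose smaller log2 difference was at least 1.5, with exact 95% counting intervals on a log axis. All 31 plotted intervals lie above the dashed line at 2, a description, since the 16 were picked from the same reads. The coding sequence of 1074 bases, with 0 reads in white, is shown by an arrow at the lower end of its interval, 13.7.

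In chinchilla skin, 12 members had at least 100 RPKM, of 1438 coding sequences at that level (0.834%). The highest, of 1242 bases, had 9355 reads (502 RPKM) there, 4420 (240.0 RPKM) in white and 2984 (148 RPKM) in black skin. The 3 skins were graded, with chinchilla 3.39-fold over black (3.26 to 3.54) and 2.09-fold over white (2.02 to 2.17), and stood at place 804, 523 and 223 by RPKM in black, white and chinchilla. One of 777 bases had the same order of skins, from 58.8 RPKM in black over 94.3 RPKM in white to 209 RPKM in chinchilla. One of 1143 bases was at 305 RPKM in chinchilla, 98.7 RPKM in black and 114 RPKM in white, and one of 1212 bases at 161, 77.1 and 59.7 RPKM. The latter was lowest in white, at 2.70-fold below chinchilla (2.52 to 2.90). All 12 had at least 318 reads in chinchilla skin, and 9 of them had counting intervals above 2-fold against both other skins.

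Further down, 27 members had 20 to 100 RPKM in chinchilla skin (0.578% of 4672), 28 had 5 to 20 RPKM (0.753% of 3716) and 34 had 1 to 5 RPKM (1.49% of 2288). Over all 101, the counting interval lay above 1 against both other skins in 98 and above 2 against both in 44. The rule used the same reads, so intervals above 1 largely follow from the choice of members. Intervals above 2 come from these reads too, and both counts are a description. The 3 whose interval reached 1 in a comparison had 7 to 12 reads in chinchilla skin. At this depth the difference in that comparison cannot be told from counting error, while the interval against the other skin lay above 1 in each. Other low members had intervals far from 1. One of 2403 bases had 78 reads in chinchilla skin, 10 in black and 6 in white (2.16, 0.256 and 0.168 RPKM), 8.45-fold over black (4.36 to 18.3) and 12.9-fold over white (5.65 to 36.1). The longest member, of 5814 bases, had 268 reads (3.07 RPKM), 43 reads (0.455 RPKM) and 72 reads (0.835 RPKM) in the same order, 6.75-fold over black (4.88 to 9.54) and 3.68-fold over white (2.83 to 4.84). One of 1551 bases had 37, 2 and 5 reads.

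No reads were found for 4 members in black and 6 in white skin, and 2 members had none in either. A count of 0 was taken to allow up to 3 reads. The member of 1074 bases had 53 reads (3.29 RPKM) in chinchilla skin, 8 (0.459 RPKM) in black and 0 in white. It was at least 13.7-fold higher than in white by the lower end of its exact 95% interval, and 17.5-fold with the 0 taken as 3 reads. One of 516 bases, with 17 reads in chinchilla skin, was at least 4.08-fold higher than in white by the interval, and 5.6-fold with 3 reads. The 2 without reads in either other skin, of 501 and 381 bases, had 8 and 6 reads in chinchilla skin, and were at least 1.69-fold and at least 1.16-fold higher than in white by the interval, and 2.64-fold and 1.98-fold with 3 reads. With every 0 set to 3 reads, 97 of the 101 still passed the rule, and the median log2 difference was 1.33 against black and 1.24 against white. Calling such sequences absent from black or white skin would go beyond this depth.

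The level in black against white skin was not itself part of the rule, although both libraries entered it. Of the 101, 87 lay within 0.5 (log2) of each other in black and white skin, against 69.8% of all coding sequences compared. At 2-fold, 3 members were higher and 1 was lower in black than in white. Of the 12401 coding sequences with at least 1 RPKM in black or white, 7.31% differed by 2-fold in either direction. The 101 also hold members below 1 RPKM in both skins, which could not be called, so the sets are unlike. The 3 higher in black were those of 1875 bases, of 1029 bases (86 reads in chinchilla, 35 in black and 8 in white) and of 135 bases (10, 3 and 0 reads). The 1 lower in black had 255 bases, with 12, 0 and 4 reads. The rule favours such likeness, since a member high in 1 of the 2 skins has to be higher still in chinchilla. The scale favours it too, since adding 1 to the RPKM narrows the log2 differences of low sequences. The median member had 2.86 RPKM in black and 2.5 RPKM in white skin, against 19.9 and 17.8 RPKM over all compared. How much of the likeness comes from the scale was not tested. The median log2 difference of black minus white was -0.02, and 54 members were lower and 45 higher in black. This balance turned to 41 lower and 60 higher with the trend of coding length removed, so no direction is given. By counting intervals, 18 members were lower and 8 higher in black than in white skin, together 25.7% of the 101. Of the 12401, 30.1% were lower and 35.9% higher. These shares are not matched for read number, and fewer reads give wider intervals. The median member had 39 reads in black and 36 in white skin, against 438 and 375 over all 12608 compared.

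Coding length was not used by the rule, and the members were short. Their median length was 894 bases, against 1296 over all 12608 compared, with a range of 135 to 5814 bases. In 5 classes of length, the members were 1.5% of the shortest coding sequences, of 111 to 690 bases, then 0.953%, 0.912% and 0.476%, and 0.159% of the longest, from 2370 bases. In numbers these are 38, 24, 23, 12 and 4 members. The share raised over black fell from 8.35% to 0.955% from the shortest to the longest class and that over white from 3.6% to 0.656%. The whole black library moved with length: the median log2 difference of chinchilla minus black over all compared was 0.30 for the shortest and -0.33 for the longest class, while that of chinchilla minus white was 0.03 and 0.06. With this trend removed, 72 coding sequences were raised over both skins, 68 of them members, and the classes held 23, 12, 17, 13 and 7. The shortest class then had 0.908% and the longest 0.278%. Short sequences also collect fewer reads at the same RPKM, and the part of read number in the length pattern was not tested. Of the 44 members with both intervals above 2-fold, the classes held 13, 9, 10, 8 and 4.

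**Figure D4:**
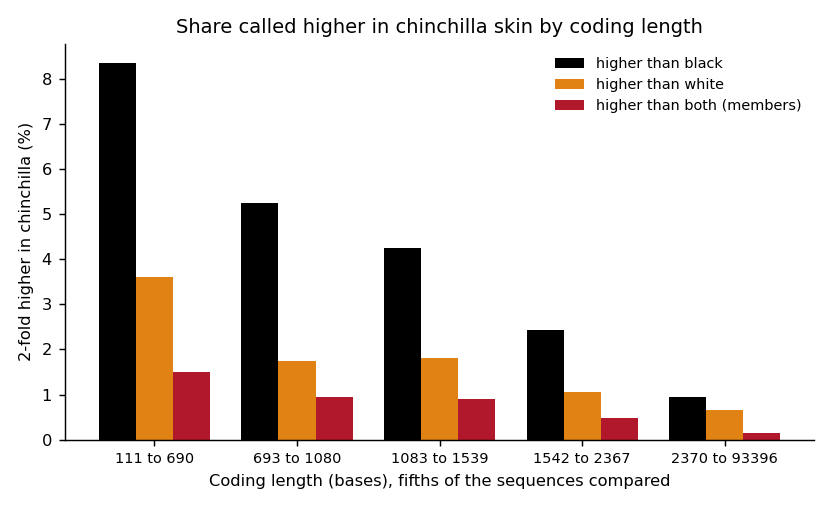
Share of compared coding sequences at least 2-fold higher in chinchilla skin (%, y axis) in 5 classes of coding length (bases, x axis), over black, over white and over both. All 3 shares are highest in the shortest class, at 8.35%, 3.6% and 1.5%, and lowest in the longest.

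The covered share tells how much of a coding sequence had any read, but not how the reads were spread over the covered bases. A coding sequence with a single read had 100 bases covered in 920 of 920 cases (within 1 base), so a mean depth was taken as reads times 100 over length. The median member was covered to 94.2% in chinchilla skin, 86.7% in black and 84.3% in white, and 65, 44 and 43 members were covered to at least 90%. More reads cover more bases, so the comparison was kept to the 44 members with a mean depth of at least 5 in all 3 libraries. Their median gain in covered share, chinchilla over the better covered of the other skins, was 0.23 percentage points, against -0.17 points over all 10041 such coding sequences. This cut does not match depth, which was higher in chinchilla skin for every member. A coding sequence already covered nearly in full also leaves little room for a gain. Within these limits, at the median, the reads of chinchilla skin fell on about the same share of bases as those of the other skins.

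A coding sequence of 858 bases, singled out after its values were seen, did otherwise. Its 172 reads in chinchilla skin stood against 83 in black and 52 in white (13.4, 5.96 and 4.09 RPKM), a mean depth of 20.05, 9.67 and 6.06. Those reads covered 379 bases (44.2%) in black, 326 bases (38.0%) in white and 851 bases (99.2%) in chinchilla skin. Its gain of 55.0 points was the largest of the 10041 coding sequences with that depth in all 3 libraries, of which 29 gained at least 10 points over both other skins. In black and white skin over 50% of its coding length had no read at these depths, and in chinchilla skin nearly none was left out. Its RPKM ratios of 2.24 over black (1.72 to 2.95) and 3.27 over white (2.38 to 4.55) average over the whole coding length. The lists give no positions, so which bases were covered in each skin is not known.

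Other members were read over part of their length in all skins. At a mean depth of at least 5 in chinchilla skin, 7 of 78 members (8.97%) were covered there to under 75%. Over all compared it was 388 of 10504 (3.69%). The one of 267 bases was covered to 70.0%, the same 187 bases in number, by 715 reads in chinchilla skin, 349 in black and 351 in white. One of 375 bases had 140 reads in chinchilla skin on 281 bases, 34 reads in black on 269 bases and 37 reads in white on 176 bases. A member of 2052 bases had 97 reads on 36.9% of its length in chinchilla skin, 35 on 29.8% in black and 28 on 21.2% in white. One of 1836 bases was covered to 34.6% by 85 reads in chinchilla and to 27.3% in both black and white, by 13 and 11 reads. In chinchilla skin the members of 2052 and 1836 bases had a mean depth of 4.73 and 4.63, with less in black and white. Few reads also limit the cover at such depths. For partly read members the RPKM, scaled to the full coding length, understates the level of the part that was read.

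**Figure D5:**
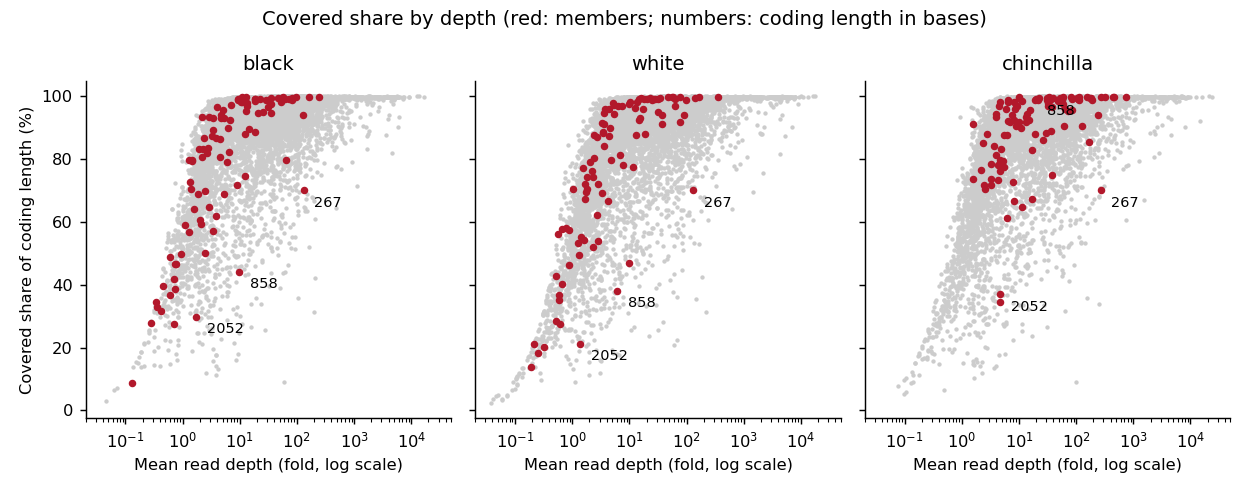
Covered share of the coding length (%, y axis) by mean read depth (fold, log x axis) in each library, with members in red over all compared coding sequences in grey. The member of 858 bases lies at 44.2% and 38.0% in black and white and at 99.2% in chinchilla skin, while that of 267 bases stays at 70.0%.

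Around the threshold, members and others lay close together. The member closest to it, of 267 bases, was at 179 RPKM in chinchilla, 80.5 RPKM in black and 88.7 RPKM in white, a smaller log2 difference of 1.00. The first coding sequence outside, of 1887 bases, had 8.41, 3.69 and 3.72 RPKM and a smaller difference of 0.996. There were 41 members between 1 and 1.1 and 47 other coding sequences between 0.9 and 1.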

How the data were processed

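RNA-seq libraries of back skin from 3 rabbits were analysed, 1 per coat colour. Per the labels' protocols, mRNA was enriched on oligo(dT) beads from TRIzol-extracted RNA, fragmented and made into Illumina libraries. The aligner, genome build, annotation release and strand setting were not given in the sources used here. The authors' lists hold, per the file headers, the count of uniquely assigned reads, the coding length (all multiples of 3), the covered percent and the RPKM of each coding sequence. RPKM recomputed from the counts differed from the deposited RPKM by at most 1.6e-14 (relative). Where a list lacks a coding sequence, 0 reads were assumed. Unique counting can miss reads of sequences that have close copies.

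Differences were taken on log2(RPKM + 1), which understates the fold of low sequences. Ratios of RPKM carry exact 95% Clopper-Pearson intervals of the conditional binomial share of reads; they and the 3-read floor cover counting error only, since no molecular identifiers separate PCR copies. A count test needs replicates and was not run. The members and lists were chosen with earlier results of these data known. The planned marker lists needed symbols and were not evaluated, and named sequences are the 2 with the largest difference from the nearer skin, others being described by length. Alternatives were other pseudocounts, floors, thresholds and scalings, and removal of the trend with coding length (lowess, fraction 0.3, fitted at a mean of at least 5 RPKM). The call rule and intervals were run on simulated counts with counting error only, in which the raised sequences lay above 5 RPKM and rose 4-fold. Smaller rises, rises at lower levels and differences between animals were not simulated. Tools were edgeR 4.0.16 in R 4.3.3 (scaling factors), SciPy 1.17.1, statsmodels 0.14.6, pandas 2.3.3, NumPy 2.4.6 and matplotlib 3.10.9 under Python 3.11.15.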

Additional observations from a re-analysis of the deposited data

How the results depend on the processing

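The number raised over both skins depended on the pseudocount, by its construction. With 0.1 in place of 1 it was 223, the 101 among them, with 817 raised over black and 486 over white, and member medians of 1.73 and 1.61 (log2). With 5 it was 30, with 189 and 53, and medians of 0.78 and 0.80. A floor of 5 RPKM left 67, and 134 over white. A 4-fold threshold left 4, and 16 over each other skin. Counting intervals beyond 2-fold left 44, and 293 and 119. With the length trend removed, the set numbered 72, and the members' medians were 1.24 against black and 0.089 for black minus white, which turned its sign. The 3 scalings kept 81 to 87 of the 101, and at least 10 reads kept 98. Leaving out the floor of 1 RPKM could change nothing, since a log2(RPKM + 1) difference of 1 already requires at least 1 RPKM in chinchilla skin. ENSOCUP00000015664 and ENSOCUP00000015077 kept their direction in every alternative run, with smallest log2 differences of 3.61 and 3.43 at a pseudocount of 5. No paired analysis was possible because each coat colour had 1 library, and for the same reason none could be left out. Depth limits the members with few reads.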
